A study of Mus musculus with 29 samples.

Results

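The comparison described here asks what a Smad2 guide RNA adds when a Smad3 guide is already present. It sets Treg cultures with guides against both genes (sgSmad2/3) beside Treg cultures with the Smad3 guide alone (sgSmad3), with 2 libraries in each group and so 4 of the series' 29 samples. Genes were kept at 5 or more CPM, that is, reads scaled to a common library total, in at least 2 of these 4 libraries, which left 10199 of the 55421 genes in the table. All 4 were cultures of splenic naive CD4 T cells of C57BL/6 mice, kept 5 days in medium that held human TGF-beta (10 ng/ml) beside IL-2 (15 ng/ml), and differed in the guides named in their titles. The same culture was sequenced with no guide named (control) and with the Smad2 guide alone (sgSmad2), again as 2 libraries each. Separate libraries of Treg and Th0 cells, 3 of each, were used to find the genes that the TGF-beta culture moves; Th0 cells had IL-2 at 15 ng/ml for 5 days and no TGF-beta. Guide sequences, the nuclease and its delivery were not stated in the labels. The labels do not say whether libraries came from separate animals or cultures, so p-values reflect only how far these libraries differed, and that spread may be technical.

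TGF-beta binds a complex of receptor kinases that phosphorylate Smad2 and Smad3. The phosphorylated Smads join Smad4, enter the nucleus and, with partner factors, raise or lower transcription. In CD4 T cells, TGF-beta given with IL-2 induces Foxp3, the lineage factor of Treg cells, and holds down effector genes such as that of the protease granzyme B. Smad3 binds short CAGAC boxes in DNA directly, whereas the main form of Smad2 carries an insert that hinders direct binding.

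The libraries held 1294583 to 1602297 reads, counted as 3' tags near the poly(A) end of transcripts. The 12 CD4 T cell markers summed to 5335 and 5113 CPM in sgSmad3 and to 5007 and 5173 CPM in sgSmad2/3, and B cell markers to 106 and 79 against 92 and 65 CPM. Myeloid markers summed to 55 and 11 CPM in sgSmad3 and to 20 and 74 CPM in sgSmad2/3, and red cell and platelet markers to 90 and 35 against 73 and 149 CPM. In the control and sgSmad2 libraries those 2 sums were 3 to 11 CPM and 15 to 27 CPM. The first sgSmad3 library stood furthest from the others, with a median correlation of log2 values of 0.954. Counts of the genes that TGF-beta culture moves and of ribosomal protein genes are given with and without it. Values of single genes and counts in the other lists are given with it. These are bulk libraries, in which fewer cells of a type and less RNA per cell cannot be told apart. Below, values are CPM of the first and then the second library of a group, rounded to whole numbers by the authors. Changes are differences of log2(CPM + 1) from limma, with a standard error (SE).

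The guide targets were read first. Smad2 stood at 25 and 30 CPM in sgSmad3 and at 13 and 18 CPM in sgSmad2/3, with no overlap, and at 37 and 29 CPM in control and 12 and 24 CPM in sgSmad2. Its change on adding the Smad2 guide was -0.80 (SE 0.32) with the Smad3 guide and -0.91 (SE 0.32) without it, and neither passed the threshold (limma, unadjusted p = 0.026 and 0.013, adjusted p = 0.997 and 1). Smad3 was at 26 and 25 CPM in sgSmad3 and at 41 and 37 CPM in sgSmad2/3, above both control libraries (30 and 34 CPM). The change in Smad3 was 0.59 (SE 0.23, limma unadjusted p = 0.020, adjusted p = 0.990), and the change from control to sgSmad2, which uses none of the same libraries, was 0.62. A guide changes DNA at its cut site, which no label gives, and a 3' tag need not cover it, so these levels do not measure how many cells were edited.

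**Figure D1:**
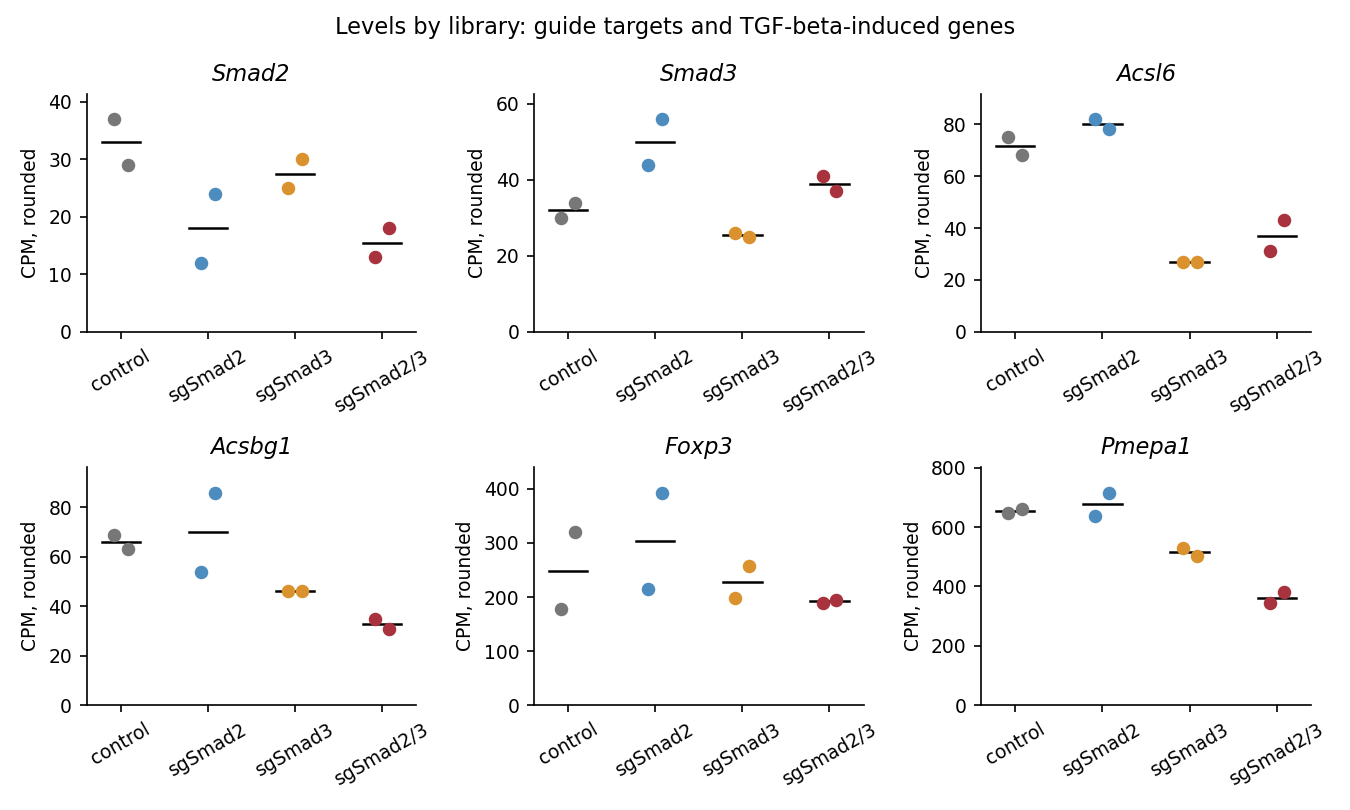
Level of Smad2, Smad3, Acsl6, Acsbg1, Foxp3 and Pmepa1 in each library (y axis, CPM rounded by the authors; x axis, guide group; points are the 2 libraries, lines their mean). Smad2 lies lower in both groups with the Smad2 guide, while Smad3 lies at 41 and 37 CPM with both guides against 26 and 25 CPM with the Smad3 guide alone.

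Of the 10199 genes, 2 rose when the Smad2 guide was added to the Smad3 guide, at an adjusted p under 0.05 (limma, 0.0196% of genes tested), and none fell. Both are genes that TGF-beta culture lowers. Id2 codes for an inhibitor of the E-protein transcription factors, and Gzmb for granzyme B, a protease of cytotoxic granules. At an unadjusted p under 0.05, 244 genes were higher (2.39%) and 233 lower (2.28%), 4.68% of those tested; these shares are the background against which the counts below are read.

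Id2 was at 215 and 220 CPM in sgSmad3 and at 619 and 548 CPM in sgSmad2/3. Control libraries had 185 and 204 CPM and sgSmad2 libraries 196 and 219 CPM, so that the 6 libraries lacking the pair of guides lay between 185 and 220 CPM and both with the pair lay far above them. The change was 1.42 (SE 0.16, 95% interval 1.09 to 1.75), or 2.67-fold (limma, adjusted p = 0.0012). Cultures without TGF-beta held 796 ± 160 CPM of Id2 (SD, n = 3) and Treg cultures 283 ± 52.5 CPM (SD, n = 3), a change of -1.48 in separate libraries.

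Gzmb was at 19 and 11 CPM in sgSmad3 and at 95 and 76 CPM in sgSmad2/3. It was at 14 and 10 CPM in control and at 25 and 20 CPM in sgSmad2, and the double-guide libraries again stood apart from the other 6. The change was 2.47 (SE 0.30, 95% interval 1.83 to 3.11), or 5.55-fold (limma, adjusted p = 0.0024). In the separate libraries, which carry another title prefix, Th0 cells held 499 ± 97.3 CPM (SD, n = 3) and Treg cells 16.1 ± 6.92 CPM (SD, n = 3). The level in sgSmad2/3 was thus far below that of those Th0 cells. Levels of the same culture can differ between the 2 sets of libraries: Eomes was at 143 ± 83.3 CPM in those Treg cells (SD, n = 3) and at 29 and 37 CPM in control. Gzmb was near the same level in both. The 12 markers of CD8, natural killer and gamma-delta T cells summed to 326 and 295 CPM in sgSmad3 and to 258 and 225 CPM in sgSmad2/3, and Tcrg-C2 made up most of that sum. Among them Ncr1, Klrb1c, Klra8 and Klre1 of natural killer cells were at 0 in all 4 libraries, and Klrd1 was at 6 and 3 against 1 and 3 CPM. Cd8a was at 2 and 3 against 2 and 1 CPM and Cd8b1 at 4 and 3 against 3 and 5 CPM. Tcrg-C1 was higher in both sgSmad2/3 libraries (66 and 59 against 76 and 72 CPM), and Eomes was at 21 and 20 against 29 and 19 CPM. The part of such cells in the Gzmb difference was not tested.

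The calls rest on few libraries. Without sgSmad2/3 replicate 1 the adjusted p was 0.391 for Id2 and 0.557 for Gzmb, without sgSmad2/3 replicate 2 it was 0.123 and 0.166, and without sgSmad3 replicate 2 it was 0.020 for Id2 and 0.0574 for Gzmb, within ranges over 18 alternatives of 0.000195 to 0.567 and 0.000195 to 0.837 (limma).

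**Figure D2:**
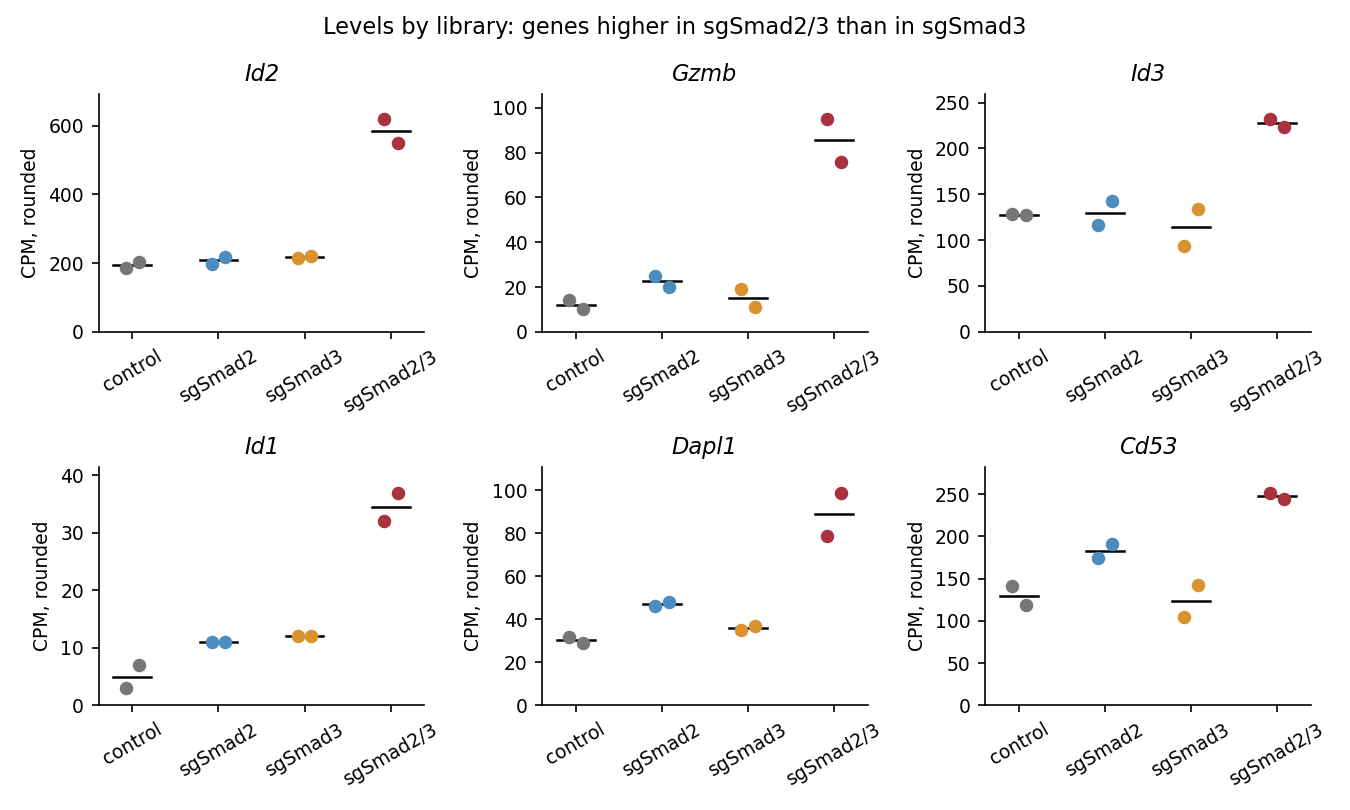
Level of Id2, Gzmb, Id3, Id1, Dapl1 and Cd53 in each library (y axis, CPM rounded by the authors, from 0; x axis, guide group; points are the 2 libraries, lines their mean). In each panel both sgSmad2/3 libraries lie above all 6 others; Id2 reaches 619 and 548 CPM against 185 to 220 CPM elsewhere.

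The 250 bases before the start of Id2, Gzmb and Id3 are shown because Id2 and Gzmb were the called genes and Id3 is the Id family member with the next smallest p. They come from RefSeq on GRCm38.p6 and lie at chr12:25096093-25096342 (minus strand), chr14:56262335-56262584 (minus strand) and chr4:136143572-136143821 (plus strand), read 5' to 3' on the gene's strand. Capitals mark matches to the Smad box CAGAC or its reverse complement GTCTG, and to GGCGC or its reverse complement GCGCC, a GC-rich form that Smad3 and Smad4 also bind; matches to the last pair may overlap.
Id2: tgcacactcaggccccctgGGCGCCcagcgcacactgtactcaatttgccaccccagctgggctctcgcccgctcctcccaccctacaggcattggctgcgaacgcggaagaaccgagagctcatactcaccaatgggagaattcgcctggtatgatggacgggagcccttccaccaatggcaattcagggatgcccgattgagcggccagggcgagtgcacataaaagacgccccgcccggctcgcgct
Gzmb: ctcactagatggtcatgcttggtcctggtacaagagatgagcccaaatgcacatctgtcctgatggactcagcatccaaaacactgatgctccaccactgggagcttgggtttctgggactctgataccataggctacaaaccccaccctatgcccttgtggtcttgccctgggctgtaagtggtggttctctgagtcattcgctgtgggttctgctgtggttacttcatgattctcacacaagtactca
Id3: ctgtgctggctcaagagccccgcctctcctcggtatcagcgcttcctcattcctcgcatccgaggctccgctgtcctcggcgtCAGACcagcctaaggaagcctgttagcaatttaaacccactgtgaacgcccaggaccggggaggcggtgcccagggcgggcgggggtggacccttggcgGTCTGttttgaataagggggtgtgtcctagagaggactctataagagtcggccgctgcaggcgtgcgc
The Id2 window held 2 overlapping GGCGC matches and no CAGAC match, the Id3 window 2 CAGAC matches, and the Gzmb window neither motif. Of 32851 promoter windows of this length, 42.2% held CAGAC and 32% held GGCGC on either strand. Of the 9725 windows of genes tested here, 39.9% held CAGAC and 57.2% held GGCGC, so a match is common, and one missing says only that these letters are not in the window. Of the 22 genes named by rule in this comparison, 15 had a window in the table.

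The other Id genes lay on the same side as Id2 without passing the threshold. Id3 was at 94 and 134 CPM in sgSmad3 and at 232 and 223 CPM in sgSmad2/3, with 116 to 143 CPM in the control and sgSmad2 libraries. Its change was 1.01 (SE 0.19, limma adjusted p = 0.125). Unlike Id2, Id3 was not lowered by TGF-beta culture. In the separate libraries, Th0 cells held 70.0 ± 2.90 CPM and Treg cells 103 ± 24.7 CPM of Id3 (SD, n = 3). That change was 0.52 (limma adjusted p = 0.058). Id1 was at 12 and 12 CPM in sgSmad3 and 32 and 37 CPM in sgSmad2/3, a change of 1.45 (limma unadjusted p = 0.0012, adjusted p = 0.462). Unlike Id2 and Id3, Id1 was also higher with the Smad2 guide alone (11 and 11 CPM) than in control (3 and 7 CPM), and the groups did not overlap.

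The rule for named genes gave 8 genes with the smallest p on the higher side, Id2, Gzmb and Id3 among them. Of the 8, 6 are genes that TGF-beta culture lowers by 2-fold or more, as are 132 of all 10199 genes tested. Id3 is not among the 6. Dapl1, a marker of naive T cells, was at 35 and 37 CPM in sgSmad3 and at 79 and 99 CPM in sgSmad2/3, a change of 1.27 (limma adjusted p = 0.0646). The tetraspanin Cd53 was at 104 and 143 against 252 and 244 CPM, a change of 1.02 (limma adjusted p = 0.0979). For both, the groups did not overlap, and the sgSmad2 libraries (46 and 48 CPM of Dapl1, 175 and 191 CPM of Cd53) also lay above the control libraries (32 and 29, and 141 and 119 CPM). Stc1, which codes for the secreted glycoprotein stanniocalcin, was at 59 and 80 against 133 and 156 CPM. Nrn1, which codes for neuritin, a membrane-anchored protein known from anergic and regulatory T cells, was at 7 and 8 against 24 and 21 CPM, and the control libraries held 17 and 23 CPM. The eighth, the alpha-globin gene Hba-a1, was at 25 and 25 against 50 and 70 CPM; reads of this gene and its near-identical copy Hba-a2 cannot be assigned with certainty. The beta-globin gene Hbb-bs was at 42 and 6 CPM in sgSmad3 and at 14 and 47 CPM in sgSmad2/3, so red cell markers varied within both groups, and their part in the Hba-a1 difference was not tested.

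On the lower side no gene passed the threshold. Of the 8 genes named by the smallest p, 6 are ones that TGF-beta culture raises by 2-fold or more, as are 203 of all 10199 genes tested. Tcrg-C4, a constant gene of the T cell receptor gamma locus, was at 144 and 108 CPM in sgSmad3 and 63 and 48 CPM in sgSmad2/3, a change of -1.17 (SE 0.21, limma adjusted p = 0.0979). Its neighbours in that locus lay the same way: Tcrg-C2 was at 222 and 198 against 139 and 120 CPM and Trgv2 at 53 and 49 against 26 and 28 CPM. Reads of the gamma constant genes can be split between near-identical copies. The delta constant gene Trdc, which gamma-delta T cells use, was at 5 and 9 CPM in sgSmad3 and at 7 and 5 CPM in sgSmad2/3, and Tcrg-C1 was at 66 and 59 against 76 and 72 CPM. Tjp1, which codes for the tight-junction scaffold ZO-1, was at 25 and 22 against 7 and 11 CPM. Litaf, a regulator of endosomal sorting, was at 53 and 68 against 29 and 31 CPM. Atp6v1b2, a subunit of the vacuolar proton pump, was at 112 and 79 against 47 and 57 CPM, and Rasgrp2, an exchange factor for Rap1, was also among the 8. For Rasgrp2 the sgSmad2/3 libraries (261 and 290 CPM) lay around the control level (282 and 269 CPM) and the sgSmad3 libraries (440 and 380 CPM) above it.

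**Figure D3:**
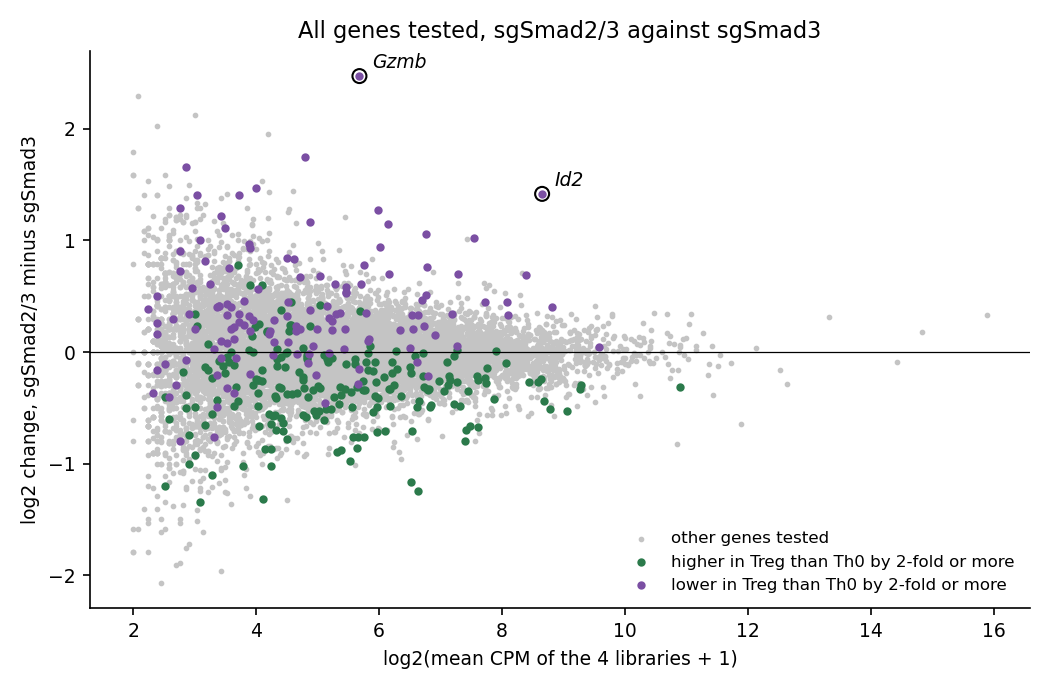
Change of all 10199 genes tested (y axis, log2 change, sgSmad2/3 minus sgSmad3) against their level (x axis, log2 of the mean CPM of the 4 libraries + 1); genes that TGF-beta culture raised or lowered are coloured and the called genes Id2 and Gzmb are circled. Lowered genes lie mostly above 0 and raised genes mostly below it, while all genes centre on 0.

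The genes that TGF-beta culture moves were taken from the separate Treg and Th0 libraries, at an adjusted p under 0.05 and a change of 2-fold or more (limma). Of the 9937 genes tested there, 215 were higher in Treg than in Th0 cells (2.16%) and 166 lower (1.67%). Of these, 203 and 132 passed the level filter here. Among the 203 raised genes, 43 were lower with both guides than with the Smad3 guide alone at an unadjusted p under 0.05 (21.2%, against 2.28% of all genes), and 2 were higher. Their median change was -0.31, and 175 of them lay below 0. Among the 132 lowered genes, 33 were higher (25%, against 2.39% of all genes) and none lower at that threshold, with a median change of 0.33 and 106 above 0. The median over all genes was -0.0015. Both sgSmad2/3 libraries lay below both sgSmad3 libraries for 94 of the 203 raised genes (46.3%, against 16.1% of all genes) and above them for 50 of the 132 lowered genes (37.9%, against 15.8% of all genes).

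Few of these genes passed the filter through one group alone, 1 of the raised and 3 of the lowered genes. With genes kept by a mean of 5 CPM or more over all 8 libraries, 42 of 202 raised genes were lower (20.8%, against 2.27% of all genes). By the same filter, 33 of 124 lowered genes were higher (26.6%, against 2.35% of all genes). Leaving out 1 of the 4 libraries compared gave 28 raised genes lower without sgSmad3 replicate 1, 43 without sgSmad3 replicate 2 and 28 without each of the sgSmad2/3 libraries in turn. The lowered genes that were higher then numbered 27, 26, 21 and 22. Leaving out 1 control or 1 sgSmad2 library left the median change at -0.31 for raised and 0.33 for lowered genes, as those libraries do not enter the change itself. Of all genes, 2.19% were higher and 1.04% lower without sgSmad3 replicate 1, 3.73% and 3.93% without sgSmad3 replicate 2, 1.29% higher and 1.4% lower without sgSmad2/3 replicate 1, and 1.2% higher and 2.26% lower without replicate 2.

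**Figure D4:**
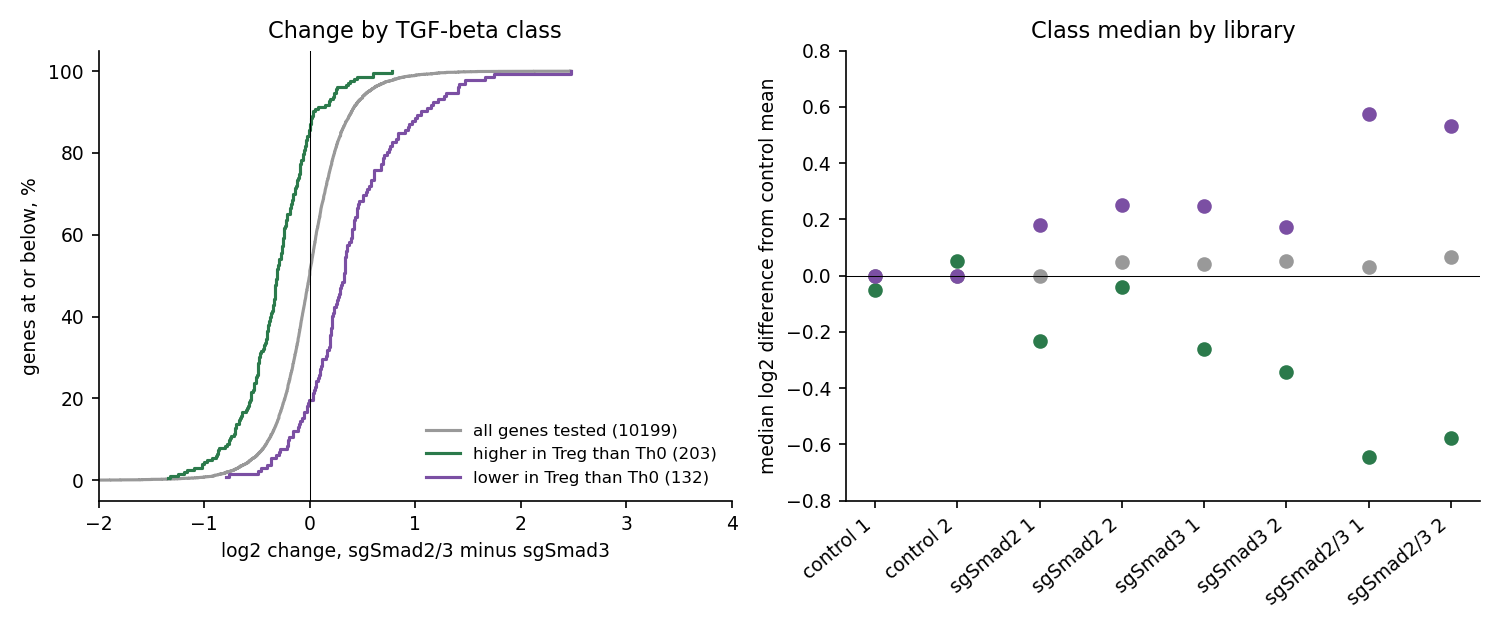
Left, cumulative share of genes (y axis, %) by log2 change of sgSmad2/3 minus sgSmad3 (x axis) for all genes tested and for genes higher or lower in Treg than in Th0 cells by 2-fold or more. Right, median over each class of the log2 difference from the mean of the controls (y axis) in each library, same colours: the sgSmad2/3 libraries stand at -0.64 and -0.58 for raised and 0.58 and 0.53 for lowered genes.

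By library, the median raised gene stood at -0.26 and -0.34 relative to the mean of the controls in sgSmad3, and at -0.64 and -0.58 in sgSmad2/3. The sgSmad2 libraries stood at -0.23 and -0.04. The median lowered gene stood at 0.25 and 0.17 in sgSmad3, at 0.58 and 0.53 in sgSmad2/3 and at 0.18 and 0.25 in sgSmad2. For both classes the double-guide libraries were the outermost of the 8, and those with a single guide lay between them and the controls, except the second sgSmad2 library for the raised genes, which lay among the controls (-0.05 and 0.05).

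The raised genes at an unadjusted p under 0.05 included feedback inhibitors of TGF-beta signalling. Pmepa1, which codes for a membrane protein that keeps Smad2 and Smad3 from the receptor, was at 529 and 504 CPM in sgSmad3 and at 343 and 381 CPM in sgSmad2/3, a change of -0.51 (limma unadjusted p = 0.0034, adjusted p = 0.709). The control and sgSmad2 libraries held 637 to 716 CPM, so the sgSmad3 libraries lay below these and the sgSmad2/3 libraries below those. Its homologue Ldlrad4 was at 51 and 66 against 26 and 44 CPM, and Skil, which codes for the Smad corepressor SnoN, at 225 and 307 against 201 and 192 CPM. Spsb1, which codes for a ubiquitin ligase adaptor that acts on the type II TGF-beta receptor, was at 66 and 67 against 35 and 43 CPM.

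Others of the raised genes code for surface and effector proteins. Cdh1, which codes for E-cadherin, was at 217 and 70 CPM in sgSmad3 and at 68 and 39 CPM in sgSmad2/3, so its groups were separated by only 2 CPM and the sgSmad3 libraries differed widely from each other. Nt5e, the CD73 enzyme that makes adenosine, was at 41 and 39 against 21 and 32 CPM, and Fgl2, a soluble suppressive mediator of Treg cells, at 61 and 45 against 27 and 29 CPM. Cd96, an inhibitory receptor, was at 70 and 70 against 50 and 46 CPM. Maf, a transcription factor of interleukin-10-producing T cells, was at 78 and 89 against 44 and 58 CPM, and Ctsw, the cathepsin of cytotoxic lymphocytes, at 236 and 188 against 137 and 106 CPM. The 2 raised genes on the other side were the zinc transporter Slc39a14 (9 and 8 against 13 and 18 CPM) and the corepressor Tle1 (12 and 13 against 18 and 21 CPM).

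Among the lowered genes, Itgb3, which codes for the beta-3 integrin subunit, was at 44 and 42 CPM in sgSmad3 and at 88 and 106 CPM in sgSmad2/3, a change of 1.15 (limma unadjusted p = 0.0003, adjusted p = 0.308). Control libraries held 14 and 15 CPM and sgSmad2 libraries 34 and 56 CPM, so either guide alone lay above the control and the pair above both. Icos, a costimulatory receptor, was at 77 and 83 against 127 and 146 CPM. Tgm2, a transglutaminase, was at 9 and 15 against 40 and 43 CPM, with 6 to 17 CPM in the control and sgSmad2 libraries. The transcription repressor Prdm1 was at 4 and 3 against 13 and 9 CPM. It is one of the lowered genes that passed the level filter through the sgSmad2/3 libraries alone, so the filter itself favours its being counted as higher. The interferon-inducible GTPase genes Gbp4 (42 and 66 against 93 and 80 CPM) and Gbp8 (10 and 8 against 18 and 19 CPM) and the glucose transporter Slc2a3 (137 and 100 against 200 and 181 CPM) also stood higher.

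The TGF-beta pathway itself was read from ligands to targets. Of 16 genes of ligands and their activators, 7 were tested and none passed an unadjusted p of 0.05. Tgfb1 was at 66 and 58 against 52 and 54 CPM, and Nrros, which anchors latent TGF-beta on the cell surface, at 90 and 92 against 112 and 121 CPM. Of 14 receptor genes, 12 were tested and none passed that threshold either. Tgfbr1 was at 25 and 32 against 31 and 34 CPM and Tgfbr2 at 55 and 67 against 54 and 49 CPM, with 95% intervals of the change of -0.31 to 0.70 and -0.67 to 0.20. Of 21 Smads and Smad cofactors tested, 1 was higher (Smad3) and 4 were lower (Pmepa1, Ldlrad4, Smad2 and Skil) at that threshold. Smad4, the shared partner of Smad2 and Smad3, was at 67 and 70 against 72 and 100 CPM, and the inhibitory Smad7 at 132 and 170 against 124 and 134 CPM. Of 24 TGF-beta target genes tested, 3 were higher (the Id genes) and 6 lower (Pmepa1, Spsb1, Cdh1, Nt5e, Ldlrad4 and Skil), with a median change of -0.22 against -0.0015 over all genes.

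The acyl-CoA synthetase genes Acsl6 and Acsbg1, both named by rule, lay on opposite sides. TGF-beta culture raised both (2.07 and 2.11 on the log2 scale in the separate libraries). Acsl6 was at 27 and 27 CPM in sgSmad3 and at 31 and 43 CPM in sgSmad2/3, a change of 0.42 with a 95% interval of -0.04 to 0.88 (limma unadjusted p = 0.069, adjusted p = 0.997). Control libraries held 75 and 68 CPM and sgSmad2 libraries 82 and 78 CPM, so that every library with the Smad3 guide lay below every library without it, whether or not the Smad2 guide was present. Acsbg1 was at 46 and 46 CPM in sgSmad3 and at 35 and 31 CPM in sgSmad2/3, a change of -0.47 with a 95% interval of -0.96 to 0.02 (limma unadjusted p = 0.060, adjusted p = 0.997). It was at 69 and 63 CPM in control and at 54 and 86 CPM in sgSmad2. The difference between these 2 genes was not tested. Of 11 acyl-CoA synthetase genes tested, none passed an unadjusted p of 0.05, and their median change was 0.12.

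Foxp3 was at 198 and 257 CPM in sgSmad3 and at 189 and 195 CPM in sgSmad2/3, a change of -0.23 with a 95% interval of -0.81 to 0.35 (limma adjusted p = 0.997). The control (177 and 320 CPM) and sgSmad2 libraries (214 and 393 CPM) spread more widely than the difference. Th0 cells of the separate libraries held 10.4 ± 2.92 CPM (SD, n = 3), and the level in sgSmad2/3 was above that of those cells. Of 26 Treg core genes tested, 2 were higher (Icos and Prdm1) and 2 lower (Fgl2 and Nt5e) at an unadjusted p under 0.05. Prdm1 had passed the level filter through the sgSmad2/3 libraries alone. The median change of the 26 was 0.03. The receptor genes Il2ra (1530 and 1534 against 1677 and 1779 CPM) and Ctla4 (27 and 24 against 22 and 25 CPM) and the transcription factor gene Ikzf2 (130 and 161 against 151 and 148 CPM) did not pass an unadjusted p of 0.05, with 95% intervals of the change of -0.16 to 0.50, -0.64 to 0.41 and -0.35 to 0.45. For Il2ra both sgSmad2/3 libraries lay above both sgSmad3 libraries. Itgae, which codes for the CD103 integrin chain that binds E-cadherin, was at 18 and 26 against 16 and 16 CPM, and at 36 to 58 CPM in the 4 libraries without the Smad3 guide.

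The Smad2 guide was also added without the Smad3 guide, in sgSmad2 against control, and that effect shares no library with the one described so far. Both came from the same fit, however, so each gene had the same SE in both, such as 0.30 for Gzmb. A gene with a small SE passes more easily in both, so the overlap counts below are not independent of the shared spread. Of the 244 genes higher at an unadjusted p under 0.05 with the Smad3 guide, 20 were also higher without it (8.2% of the 244 and 10.6% of the 188 higher there), where 1.84% of all genes were. Of the 233 lower genes, 18 were also lower without it (7.73% of the 233 and 14.3% of the 126 lower there), where 1.24% of all genes were. The 20 held 10 genes that TGF-beta culture lowers and none that it raises. The 18 held 11 that it raises and none that it lowers. Of all 10199 genes, 132 are lowered and 203 raised. The 244 already held 33 lowered genes and the 233 held 43 raised genes, so these counts partly follow from that selection. The median change of the 244 was 0.08 without the Smad3 guide, against 0.77 with it, on which they were selected. Of the 244, 60.2% lay above 0 without it, as did 52.5% of all genes. For the 233 the medians were -0.08 without and -0.71 with the Smad3 guide, and 62.7% lay below 0 without it. Myo6, which codes for an unconventional myosin, was the 1 gene past the adjusted threshold in sgSmad2 against control (limma, 0.0098% of genes tested, with 3.08% at an unadjusted p under 0.05): it stood at 69 and 70 CPM in control, 159 and 183 in sgSmad2, 180 and 171 in sgSmad3 and 204 and 283 CPM in sgSmad2/3. Ms4a4b, a membrane protein of T cells, stood at 170 and 165, 362 and 284, 230 and 281, and 368 and 460 CPM in the same order. Ccr2, a chemokine receptor, stood at 1 and 2, 12 and 5, 7 and 6, and 30 and 26 CPM. S100a4, a calcium-binding protein, ran the other way, with 229 and 188, 128 and 112, 258 and 179, and 146 and 125 CPM.

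**Figure D5:**
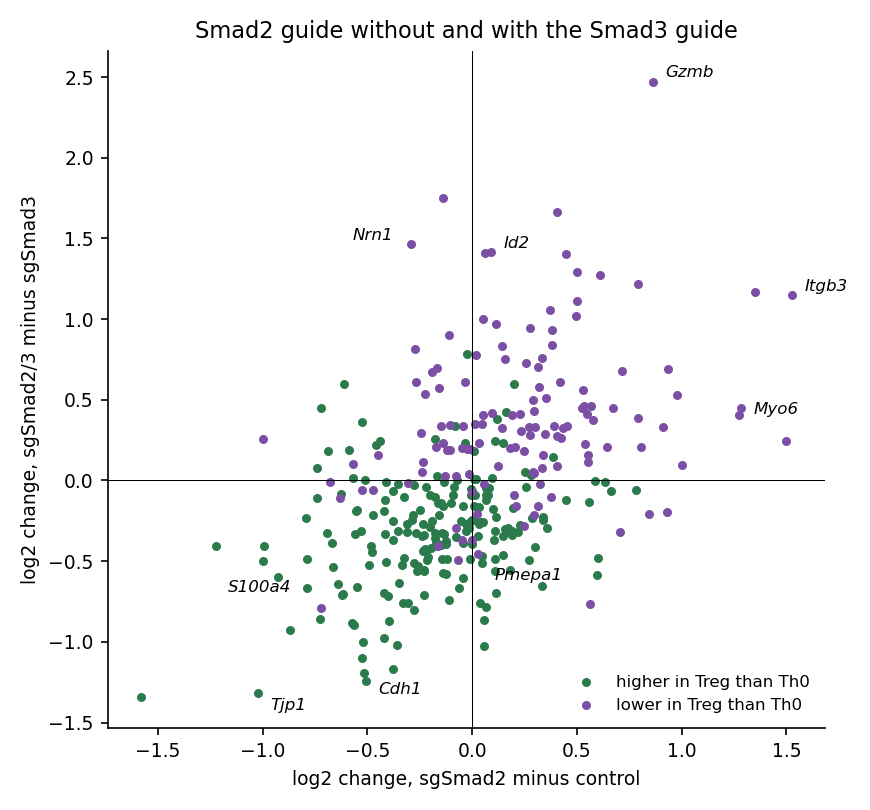
Change on adding the Smad2 guide with the Smad3 guide (y axis, log2 change, sgSmad2/3 minus sgSmad3) against that without it (x axis, log2 change, sgSmad2 minus control), for the 203 genes that TGF-beta culture raised and the 132 that it lowered. With and without the Smad3 guide, Id2 lies at 1.42 and 0.09, Gzmb at 2.47 and 0.86, and Itgb3 at 1.15 and 1.53.

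Whether the Smad2 guide acted differently with and without the Smad3 guide was tested as the difference between those 2 effects. No gene passed an adjusted p of 0.05 (limma), and 288 genes did at an unadjusted p under 0.05 (2.82%). For Id2 the effect was 1.42 with and 0.09 without the Smad3 guide, a difference of 1.32 (SE 0.22, 95% interval 0.86 to 1.79, limma unadjusted p = 1.92e-05, adjusted p = 0.196). Nrn1 had 1.47 and -0.29, a difference of 1.76 (limma adjusted p = 1). For Gzmb the values were 2.47 and 0.86, a difference of 1.61 (SE 0.43, limma adjusted p = 1). Tnfaip8l1, of a family of lipid-transfer proteins, had -0.58 and 0.64, a difference of -1.22: its libraries held 41 and 42 CPM in sgSmad3 and 26 and 29 CPM in sgSmad2/3, but 25 and 25 CPM in control and 41 and 38 CPM in sgSmad2. By contrast the difference for Itgb3 was -0.38 and for Maf -0.09.

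In the cytotoxic list, 11 genes were tested; Gzmb was called, Srgn, the proteoglycan that packs granule proteases, was higher (172 and 175 against 241 and 289 CPM) and Ctsw lower at an unadjusted p under 0.05. Of 9 helper cytokine genes tested, none was higher and 3 were lower at that threshold. They were Tnfsf11 (RANK ligand, 14 and 8 against 3 and 5 CPM), the chemokine Xcl1 (7 and 8 against 1 and 3 CPM) and Ltb (lymphotoxin beta, 111 and 90 against 76 and 69 CPM). Xcl1 passed the level filter through the sgSmad3 libraries alone, where it was higher, so the filter itself favours its being counted as lower. Of 23 costimulation and checkpoint genes, 3 were higher (Icos, Cd28 and Cd5) and Cd96 was lower. Cd28, the receptor for the main costimulatory signal, was at 89 and 83 against 107 and 132 CPM. The antigen-signal list of 42 genes had 1 higher (Themis) and 4 lower (Dusp5, Jund, Dusp2 and Nr4a2); Nr4a2, an immediate early nuclear receptor gene, was at 22 and 21 against 8 and 13 CPM. Of 28 naive and quiescence genes, 3 were higher (Dapl1, Il7r and S1pr4) and Rasgrp2 was lower, and Il7r, the interleukin-7 receptor gene, was at 47 and 36 against 72 and 76 CPM.

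Among chemokine receptors, integrins and adhesion genes, 23 were tested, with 3 higher (Itgb3, Ccr2 and the tetraspanin Cd9) and 3 lower (Cdh1, the laminin receptor chain Itga6 and Ccr4) at an unadjusted p under 0.05. Ccr4, a receptor that draws Treg cells to skin and other tissues, was at 36 and 49 CPM in sgSmad3 and at 29 and 25 CPM in sgSmad2/3. The list of tissue Treg genes had 12 tested, with a median change of -0.25. Id2 was called, and Prdm1 was higher and Maf and Ccr4 lower at that threshold. As above, Prdm1 was tested through the sgSmad2/3 libraries alone.

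Lists of metabolism and growth held few genes past an unadjusted p of 0.05. Of 20 hypoxia response genes 3 were higher (Slc2a3, Egln3 and P4ha2) and none lower, with a median change of 0.22, and without sgSmad2/3 replicate 1 none was past that threshold. In fatty acid synthesis 1 of 21 genes was higher, Acaca, the acetyl-CoA carboxylase that makes malonyl-CoA, at 29 and 32 CPM in sgSmad3 and 50 and 56 CPM in sgSmad2/3; control libraries held 51 and 40 CPM. Of 74 oxidative phosphorylation genes none passed, with a median change of 0.06. Among 42 DNA replication and 42 mitosis genes none was higher, and 2 and 1 were lower. For 30 cytosolic ribosomal protein genes both sgSmad2/3 libraries lay above both sgSmad3 libraries, and for 4 below. Of all genes, 15.8% lay above and 16.1% below in that way. The median change of the ribosomal protein genes was 0.13. Their levels summed to 52220 and 52975 CPM in sgSmad3, 56451 and 55492 CPM in sgSmad2/3 and 67250 and 62854 CPM in control. Of 76 cytosolic ribosomal protein genes 3 were higher and 1 lower, with 13 higher without sgSmad3 replicate 2, where 3.73% of all genes were higher, and none in either direction without sgSmad3 replicate 1; Rpl36, the one with the smallest p, was at 149 and 192 against 252 and 252 CPM.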

How the data were processed

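The sources used here give QuantSeq 3' FWD libraries of TRIzol total RNA; the submitters' processing notes list STAR 2.7.9a, Subread 2.0.1 and build mm10. The guide table holds CPM that the authors had rounded to integers before it was deposited, so it was treated as a score, not as counts. The authors deposited the Treg and Th0 table under the name TPM, but its values are CPM, worth whole reads within 0.01 for 100% of values. The unnamed last line of the guide table was not used as a gene. limma 3.58.1 (R 4.3.3, trended variance) was fitted to log2(value + 1) of all 8 guide libraries, with Benjamini-Hochberg adjustment over 10199 genes and a threshold of 0.05; the code was tested on simulated data. Named genes were Smad2, Smad3, Acsl6, Acsbg1 and Foxp3; the called genes, filled to 8 per direction by the smallest p among annotated genes with no overlap of groups and a higher mean of at least 20; 4 genes by p for the difference between the Smad2 guide effects; and, in each list, called members and up to 3 more by p. Other genes, among them those named for how TGF-beta culture moves them and those past an unadjusted p beyond that number in a list, were chosen after their values were seen. Members and lists were chosen with earlier results of these data known. Alternatives are given in the closing section. Depth was 1294583 to 1602297 reads per guide library. ATAC libraries and those with an Acsbg1 guide were not analysed here. Of the genes on the lower side, 1 that the rule named is not reported here.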

Additional observations from a re-analysis of the deposited data

How the results depend on the processing

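The number of genes past the threshold between sgSmad2/3 and sgSmad3, 2 as reported, was 0 with no filter on low values, 0 without a trended variance and 0 with only these 4 libraries in the fit, and ranged from 0 to 3 when single libraries were left out (0 without either sgSmad2/3 library); the cause was not tested. It was 2 under the other pseudocounts, scalings and the stricter filter. With a replicate block it was 8, adding Dapl1, Cd53, Id3, Stc1, Cdh1 and Tcrg-C4. The replicate numbers showed no pairing of sgSmad3 with sgSmad2/3 libraries (correlation of deviations 0.05), so the block result stands only here. Id2 passed in 13 of 18 alternatives and Gzmb in 12 of 18 (limma), and both kept their direction in all 18, with changes of 1.33 to 1.505 and 2.10 to 2.84. The difference between the Smad2 guide effects gave 0 genes in all 17 alternatives. Genes that differed between Treg and Th0 cells numbered 381 as reported and 639 at 1.5-fold; edgeR on the recovered reads, chosen after seeing the data, gave 457. With 2 libraries per group and values rounded to whole CPM, changes of genes near 5 CPM carry large rounding and counting error.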

Other observations

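Transcripts of other tissues varied between libraries of the same group; the choice of genes followed a look at the values. The skeletal muscle actin gene Acta1 was at 51 and 4 CPM in sgSmad3, 30 and 12 CPM in sgSmad2/3, 13 and 36 CPM in sgSmad2 and 3 and 3 CPM in control. The salivary gland gene Bpifa2 was at 31 and 0 CPM in sgSmad3, 7 and 20 CPM in sgSmad2/3, 0 and 3 CPM in sgSmad2 and 23 and 54 CPM in control. The neutrophil gene S100a8 was at 19 and 1 CPM in sgSmad3 and at 2 and 27 CPM in sgSmad2/3, and at 0 in the other 4 libraries. None of these separated sgSmad2/3 from sgSmad3, and their part in the differences reported was not tested.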
